A study of Mus musculus with 21 samples.

Results

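The comparison set lungs taken 3 h after a fungal extract against lungs taken 3 h after an equal dose of a foreign protein, and took all arrays that carry those labels: 7 of the 21 arrays of the study. The 4 extract arrays came from mice given 20 µg of MACA, a crude antigen preparation of the insect-killing fungus Metarhizium anisopliae, and the 3 protein arrays from mice given 20 µg of bovine serum albumin (BSA). Both agents were dissolved in 50 µl of Hank's balanced salt solution (HBSS) and aspirated once into the trachea of female BALB/c mice aged 8 weeks. The whole left lung was homogenised for RNA, and each array is labelled a biological replicate. The 3 arrays of mice given 50 µl of HBSS alone and killed at 3 h serve as a background level, and 3 MACA and 4 BSA arrays at 12 h as a later time. The labels describe the agents as differing in allergenicity and do not list the components of the extract. Because the albumin mice also received a foreign protein by the same route, the contrast asks what the extract did beyond that protein. All 22626 probe sets that are not controls entered, and these gave 12393 genes.

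The lung senses inhaled microbes through pattern recognition receptors on macrophages, dendritic cells and epithelium. These receptors activate the transcription factors NF-kB and AP-1 and, through interferons and cytokines, the STAT factors. Early targets of those factors are chemokines that call neutrophils and monocytes from the blood, cytokines such as interleukin-1 and interleukin-6, adhesion molecules on the vessel wall, and inhibitors that end the response. Albumin is a soluble protein of low innate activity, but any fluid placed in the airway also touches the epithelium.

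Levels are given as log2(intensity + 16) after quantile normalization, in the order of replicates 1 to 4 for MACA and 1 to 3 for BSA. Genes were tested with limma, and a gene is said to have risen or fallen where its Benjamini-Hochberg adjusted p was under 0.05. Values below 0 gave the noise level: 95% of them were smaller in size than an intensity of 40.9 or a level of 5.83. A gene under it on every array of one group is given as at least so many fold in MACA against BSA at 3 h. Differences from HBSS and between times are given as fitted, and their size is uncertain where a group was under the noise level. Of the named genes, Ccl4, Ccl22, Tnfsf9, Saa1 and Spry4 had a BSA mean below the noise level but 1 BSA array above it, so their folds are given as measured and are less certain. Each gene is represented by its brightest probe set. For Il1rn, Socs3, Sod2, Thbs1, Rcan1, H2-K1, Map3k12, Man2b1 and Tbc1d22a another probe set above noise kept the direction and did not pass. Of these genes, Socs3, Sod2 and Il1rn also had a further probe set that rose and passed by limma over all probe sets. It stood at log2 folds of 2.07 (adjusted p = 0.000199), 0.99 (adjusted p = 0.00198) and 1.46 (adjusted p = 0.0294). For Abcc1, Hyou1 and Lifr, which fell, another one stood at log2 folds of 0.10, 0.09 and 0.10 and did not pass. The lung labels held: Sftpc, the surfactant protein of alveolar type 2 cells, was at 13.68, 13.68, 13.76 and 13.76 in the MACA lungs and 13.76, 13.68 and 13.76 in the BSA lungs, and Scgb1a1, the club cell secretory protein, at 13.76, 13.76, 13.68 and 13.68 in the MACA lungs and 13.68, 13.76 and 13.68 in the BSA lungs. Endothelial Ramp2 and macrophage Lyz2 were also near the top of the scale, at 12.50 and 13.26 on average after MACA and 12.49 and 13.24 after BSA. Quantile normalization gives every array the same ranked values. The levels of Sftpc and Scgb1a1 thus show their rank on each array, and their match between groups is not a measured equality.

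Median deposited intensity of the 7 arrays was 125 to 154, and precision is limited by how few arrays there are. The ratio of 2 probe sets of 1 spiked control split the series into a high set of 13 arrays and a low set of 8. MACA replicates 3 and 4 lay in the low set, at 1.10 and 1.11, and the other 5 arrays of the comparison in the high set, at 1.63 to 1.86. The labels name no batch, so values within the high set (2 MACA against 3 BSA arrays) are given beside the pooled ones. MACA replicate 3 also stood apart in genes of lymphoid tissue: Cxcl13, a B cell chemokine, was at 7.74, 7.71, 10.14 and 8.41 in the MACA lungs, and Ighm, the immunoglobulin M heavy chain, at 9.13, 9.27, 11.05 and 9.48. BSA replicate 2 had the lowest summed intensity of neutrophil markers (2230, against 3080 and 5270 in the other two BSA lungs) and of T cell and NK cell markers (1220, against 1680 and 2120).

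In all, 738 of 12393 genes differed between extract and albumin at 3 h (5.95%), 434 of them higher (3.5%) and 304 lower (2.45%) after MACA. The rises were larger than the falls. The median log2 fold was 0.83 among the genes that rose and -0.52 among those that fell. By fitted folds, at least 2-fold rises numbered 169 (1.36% of genes) and at least 2-fold falls 9 (0.0726%). Of the 434 genes that rose, 52 were under the noise level on every BSA array, 7 of them on every array of both groups. Of the 304 that fell, 30 were under it on every MACA array, 16 of them on every array of both groups. There were 44 genes at least 4-fold higher and none at least 4-fold lower by limma, where 2719 genes of either direction had an unadjusted p under 0.05. In 703 of the 738 the MACA and BSA arrays did not overlap, and over all genes MACA lay wholly above BSA in 8.3% and wholly below in 9.4%. The HBSS mean lay nearer the BSA than the MACA mean for 628 of the 738 (85.1%), against 57% of all genes. All HBSS and BSA arrays at 3 h lay in the high set and MACA replicates 3 and 4 did not, so agent and set cannot be told apart in this share. With the arrays scaled to a common median instead, 384 genes were higher and 430 lower, so that the share higher moved from 58.8% to 47.2%, and with no scaling 41 were higher and 3 lower, a share of 93.2%. The count was 218 without BSA replicate 2, 273 without BSA replicate 1, 323 without MACA replicate 4, 459 without MACA replicate 3 and 473 without MACA replicate 2. Within the high set 152 genes passed, and 117 of these were among the 738.

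**Figure D1:**
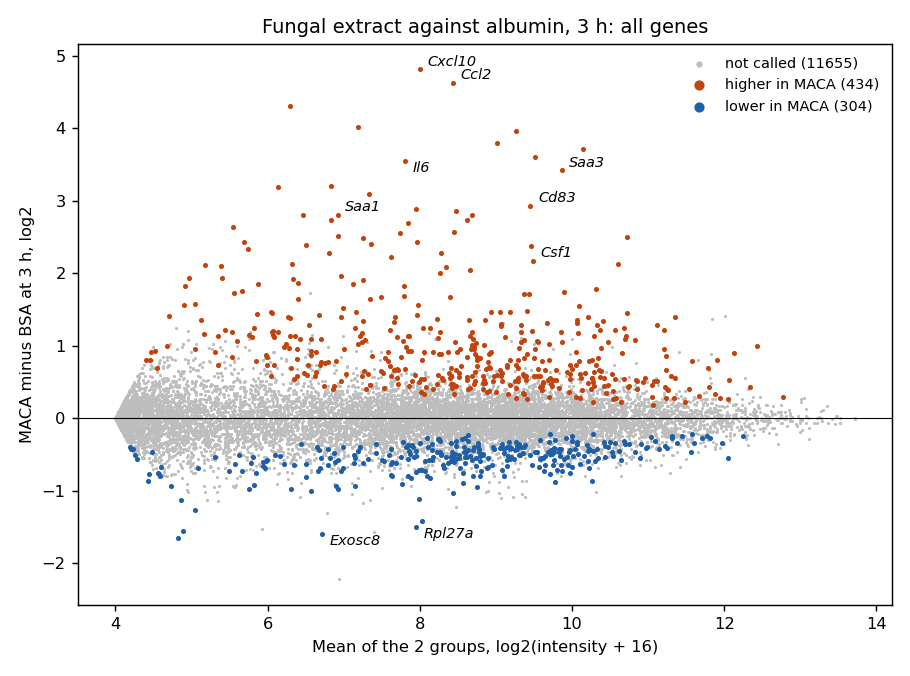
Each point is 1 of 12393 genes at 3 h, with the mean level of the MACA and BSA groups on the x axis and MACA minus BSA on the y axis, both in log2 units. The 434 genes that rose (red) reach a fitted value of 4.81, and the 304 that fell (blue) reach -1.65. Krtap5-1, at -1.65, was under the noise level on every MACA array.

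Chemokines were among the largest rises with extract over albumin, and ligands that call neutrophils, monocytes and T cells were all among the genes that rose. Cxcl10, a ligand of Cxcr3 on T cells and NK cells that interferons induce, was at 9.47, 11.39, 10.08 and 10.70 in the MACA lungs and 5.65, 5.33 and 5.83 in the BSA lungs. Every MACA array lay far above every BSA array, and no BSA array exceeded the noise level. Cxcl10 was thus at least 23.9-fold higher (group means 10.41 and 5.60, adjusted p = 7.29e-06). Ccl2, the main monocyte chemoattractant, was at 9.73, 10.93, 10.95 and 11.37 in the MACA lungs and 5.86, 5.93 and 6.58 in the BSA lungs, again without overlap (log2 fold 4.63 ± 0.50 (SE), adjusted p = 5.39e-05). The neutrophil chemoattractants Cxcl1 and Cxcl2 already had a measurable level after albumin. Cxcl1 was at 11.65, 12.00, 11.97 and 12.40 in the MACA lungs and 8.43, 7.87 and 8.57 in the BSA lungs (log2 fold 3.71 ± 0.71 (SE), adjusted p = 0.00666). Cxcl2 was at 10.52, 11.13, 11.55 and 11.75 in the MACA lungs and 7.75, 6.56 and 7.53 in the BSA lungs (log2 fold 3.96 ± 0.75 (SE), adjusted p = 0.00598). The lowest BSA value of both was that of replicate 2. In the vehicle lungs Cxcl1 was at 8.88, 8.59 and 6.40, a range that covers the BSA values.

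**Figure D2:**
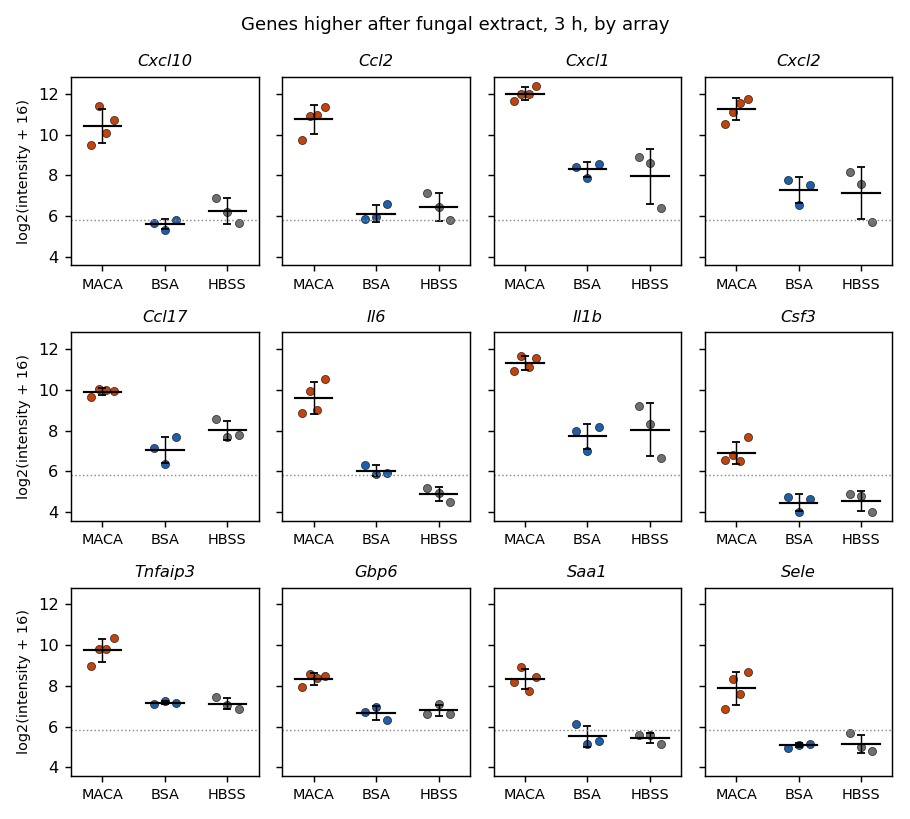
Levels at 3 h of 12 genes that rose, as log2(intensity + 16), with 1 point per array, bars for the group mean and SD, and a dotted line at the noise level of 5.83 (MACA n = 4, BSA n = 3, HBSS n = 3). In every panel the MACA points lie above all BSA points. The HBSS points are not always close to the BSA points, and those of Cxcl1 spread widely around them.

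Windows upstream of strongly raised genes are shown because NF-kB sites in chemokine promoters are a textbook feature of this response. Of the 7 genes with the highest fitted log2 folds, 6 had a promoter in the RefSeq table (GRCm38.p6), and Ccl2 was not among them. The 250 bases before the first listed start of the 3 CXC chemokines follow, 5′ to 3′ along the gene, with motif matches in capitals. Their positions are chr5:92348890-92349139, minus strand for Cxcl10, chr5:90903649-90903898, plus strand for Cxcl2 and chr5:90890995-90891244, plus strand for Cxcl1.
Cxcl10: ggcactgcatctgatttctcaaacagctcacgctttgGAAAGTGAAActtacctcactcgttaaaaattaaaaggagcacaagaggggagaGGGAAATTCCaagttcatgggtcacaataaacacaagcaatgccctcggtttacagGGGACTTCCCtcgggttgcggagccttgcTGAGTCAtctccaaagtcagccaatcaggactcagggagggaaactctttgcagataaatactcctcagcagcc
Cxcl2: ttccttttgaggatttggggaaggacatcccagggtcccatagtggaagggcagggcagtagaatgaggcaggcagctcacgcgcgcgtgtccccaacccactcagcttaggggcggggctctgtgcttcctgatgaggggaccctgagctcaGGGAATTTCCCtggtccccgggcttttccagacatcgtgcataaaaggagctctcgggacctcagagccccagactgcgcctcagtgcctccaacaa
Cxcl1: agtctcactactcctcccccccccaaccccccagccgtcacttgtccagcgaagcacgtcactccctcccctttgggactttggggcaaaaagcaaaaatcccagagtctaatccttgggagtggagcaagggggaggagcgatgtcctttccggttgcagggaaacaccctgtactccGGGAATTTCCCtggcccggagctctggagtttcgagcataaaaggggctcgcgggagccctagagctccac
In Cxcl10 the capitals mark, in this order, GAAAGTGAAA, a match to the interferon-stimulated response element (ISRE) known for type I interferon targets, the NF-kB consensus matches GGGAAATTCC and GGGACTTCCC, and TGAGTCA, an AP-1 site searched as TGANTCA. The first NF-kB match begins 159 bases and the second 103 bases before the start. In Cxcl2 and Cxcl1 the capitals mark 1 run that matches the NF-kB consensus on both strands, beginning 97 and 71 bases before the start. The window of Slc26a4 held 1 ISRE match, GAAAGGGAAA, and those of Acod1 and Ccl3 held no match to any of the 5 motifs. Both strands were searched in windows of 300 bases, 250 before to 50 after the start, and NF-kB and AP-1 matches overlapped in none of these 6. An NF-kB match stood in 4.35% of all 27025 promoters and in 4.98% of the 9887 promoters of measured genes. It stood in 39 of 338 promoters of genes that rose (11.5%), in 5 of 235 of genes that fell (2.13%), and in 22 of the 127 whose genes rose at least 2-fold (17.3%). An ISRE match stood in 3.17% of measured promoters, in 6.8% of those that rose and in 2.55% of those that fell. For AP-1 the shares were 6.27%, 9.47% and 4.26%. The remaining motifs searched did not separate risen from fallen genes in this way. In the same order the shares were 2.75%, 1.78% and 2.55% for the cyclic AMP response element. For the serum response CArG box they were 1.53%, 2.66% and 2.55%. A match describes the letters only, and no binding was measured.

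Among 17 CC chemokines measured, 9 rose and none fell by limma, with a median log2 fold of 1.36 against 0 over all genes. Ccl7, a further ligand of the monocyte receptor Ccr2, was at least 6.06-fold higher (group means 8.43 and 5.23, adjusted p = 0.000392). Ccl3 and Ccl4 are macrophage inflammatory proteins. Ccl3 was at least 10.3-fold higher (group means 9.20 and 5.18, adjusted p = 0.00667), and Ccl4 stood at 7.91, 9.06, 9.16 and 9.37 in the MACA lungs and 5.90, 5.66 and 5.80 in the BSA lungs (log2 fold 3.09 ± 0.33 (SE), adjusted p = 4.61e-05). Ccl17 and Ccl22 bind Ccr4, a receptor of type 2 helper and regulatory T cells. Ccl17 was at 9.66, 10.02, 9.97 and 9.96 in the MACA lungs and 7.12, 6.35 and 7.66 in the BSA lungs, with the MACA lungs within a narrow band (log2 fold 2.86 ± 0.43 (SE), adjusted p = 0.0012), and Ccl22 moved with it (log2 fold 2.52 ± 0.43 (SE), adjusted p = 0.00305). Ccl6, a chemokine abundant in resting lung, did not pass (log2 fold 0.14, 95% interval -0.19 to 0.47). Of 6 neutrophil-attracting CXC chemokines 3 rose, Cxcl5, an epithelial product that acts on Cxcr2, being at least 5.17-fold higher (group means 8.20 and 5.46, adjusted p = 0.0125). Cxcl15, a chemokine made constitutively by lung epithelium, was at 12.91, 12.87, 12.88 and 12.98 after MACA and 12.80, 12.83 and 12.88 after BSA and did not pass (log2 fold 0.07, 95% interval -0.05 to 0.19). Of 12 other CXC chemokines 4 rose, Cxcl10 and Cxcl11 among them. Cxcl11, which shares the receptor Cxcr3 with Cxcl10, was at least 1.52-fold higher (group means 6.44 and 4.34, adjusted p = 0.00101). Single arrays mattered for a few: the adjusted p passed 0.05 for Ccl3 (0.0521 without BSA replicate 2) and Cxcl5 (0.0548 to 0.0588 without BSA replicates 1 or 2). Leaving out 1 array moved the count of risen members by over 1.5 times in other CXC chemokines (4 in the full data, 2 without MACA replicates 2, 3 or 4 or BSA replicates 1 or 2). Within the high set the 11 named chemokines that rose had log2 folds of 2.06 to 4.83, and 5 of them passed.

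Cytokine transcripts of the interleukin-1, interleukin-6, colony-stimulating factor and TNF families stood higher after the extract. Il1b, the inflammasome-processed cytokine of macrophages and neutrophils, was at 10.90, 11.65, 11.14 and 11.55 in the MACA lungs and 7.96, 7.02 and 8.17 in the BSA lungs. The groups did not overlap (log2 fold 3.60 ± 0.60 (SE), adjusted p = 0.00237). Il6, which drives the acute phase response, was at 8.88, 9.92, 9.01 and 10.52 in the MACA lungs and 6.33, 5.87 and 5.90 in the BSA lungs (log2 fold 3.55 ± 0.57 (SE), adjusted p = 0.00206). Its BSA values lay close to the noise level. The 3 colony-stimulating factors, which expand and prime granulocytes and macrophages, rose together. Csf2 (GM-CSF) was at 8.96, 9.25, 9.72 and 9.65 in the MACA lungs and 6.59, 6.38 and 6.56 in the BSA lungs (log2 fold 2.89 ± 0.29 (SE), adjusted p = 4.27e-05). Csf1 (M-CSF) was at 10.21, 10.75, 10.37 and 10.96 in the MACA lungs and 8.13, 8.40 and 8.67 in the BSA lungs (log2 fold 2.17 ± 0.18 (SE), adjusted p = 5.43e-06). Csf3 (G-CSF) was under the noise level in every BSA lung and at least 2.09-fold higher (group means 6.90 and 4.47, adjusted p = 0.00145). Tnf was at least 2.05-fold higher (group means 6.87 and 4.23, adjusted p = 0.00584), with a spread among the MACA lungs from 5.41 to 7.76.

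By family, 7 of 13 interleukin-1 members rose (median log2 fold 0.49), 7 of 16 interleukin-6 family members and colony-stimulating factors rose and 1 fell (median 0.52), and 12 of 21 TNF ligands and receptors rose (median 0.58). The member that fell was Lifr, the leukaemia inhibitory factor receptor, chosen after its value was seen (log2 fold -0.53 ± 0.14 (SE), adjusted p = 0.0328). Antagonists were among those that rose: Il1rn, which blocks the interleukin-1 receptor (log2 fold 2.28 ± 0.54 (SE), adjusted p = 0.0231), and Il1r2, its decoy receptor, at least 2.76-fold higher (group means 7.30 and 5.37, adjusted p = 0.012). Among TNF members, Tnfsf9, the ligand of 4-1BB, rose (log2 fold 2.28 ± 0.29 (SE), adjusted p = 0.000272). Ltb, lymphotoxin beta, also passed (log2 fold 1.39 ± 0.19 (SE), adjusted p = 0.000554). The receptor Tnfrsf9 was at least 3.64-fold higher (group means 7.70 and 5.31, adjusted p = 0.0272). Il33, an alarmin stored in lung epithelium, was at 10.93, 11.24, 10.74 and 10.84 after MACA and 10.66, 10.33 and 10.73 after BSA and did not pass (log2 fold 0.36, 95% interval -0.10 to 0.83), nor did Il6st, the shared signalling chain of the interleukin-6 receptors (log2 fold 0.28, 95% interval -0.03 to 0.59). Calls ended for Il1rn (0.0556 to 0.122 without MACA replicates 2 or 4 or BSA replicates 1 or 2), Il1r2 (0.0767 without BSA replicate 2), Tnfrsf9 (0.0527 to 0.122 without MACA replicates 2, 3 or 4 or BSA replicates 1 or 2) and Lifr (0.0505 to 0.125 without MACA replicates 2, 3 or 4 or any BSA array). Counts of risen members that moved by over 1.5 times were interleukin-1 family (7 in the full data, 3 without MACA replicates 2 or 4 or BSA replicates 1 or 2), interleukin-6 family and colony-stimulating factors (7 in the full data, 4 without BSA replicate 2), and TNF and its receptor superfamily (12 in the full data, 5 without BSA replicates 1 or 2 and 7 without MACA replicate 4). Of the 12 named cytokine genes that changed, all kept their sign within the high set and 6 passed.

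Genes of the NF-kB pathway, both subunits and the inhibitors it induces, rose in most cases. Of 16 measured NF-kB subunits and feedback genes 14 rose (87.5%, against 3.5% higher over all genes), with a median log2 fold of 1.21. Tnfaip3 (A20), which removes ubiquitin chains from the pathway, was at 8.99, 9.82, 9.81 and 10.36 in the MACA lungs and 7.09, 7.27 and 7.16 in the BSA lungs (log2 fold 2.57 ± 0.24 (SE), adjusted p = 1.62e-05). Zc3h12a (regnase-1), an endonuclease that degrades cytokine messages such as Il6, was at 8.11, 8.48, 8.60 and 9.02 in the MACA lungs and 6.30, 5.90 and 6.27 in the BSA lungs (log2 fold 2.40 ± 0.21 (SE), adjusted p = 7.29e-06). Nfkbiz, an atypical inhibitor needed for induction of Il6, was at 9.92, 10.28, 10.31 and 10.41 in the MACA lungs and 8.70, 8.42 and 8.44 in the BSA lungs (log2 fold 1.71 ± 0.18 (SE), adjusted p = 4.61e-05). In all 3 genes the lowest MACA array was more than 1 log2 unit above the highest BSA array. Relb, a subunit of the noncanonical pathway, rose as well (log2 fold 1.30 ± 0.17 (SE), adjusted p = 0.00032). Probe sets of Nfkbia, the classical inhibitor, disagreed. The brightest was at 12.99, 13.16, 13.19 and 13.17 after MACA and 12.83, 12.96 and 12.92 after BSA (log2 fold 0.23, 95% interval 0.03 to 0.42), which did not pass although the groups did not overlap. A second bright one passed (group means 12.79 and 12.13, log2 fold 0.66, adjusted p = 0.0339 over all probe sets), and the other two did not (0.56 and -0.42).

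Immediate early transcription factors, which respond within minutes to growth factors and stress, rose in 14 of 24 cases and fell in none by limma (median log2 fold 0.54). Atf3, a stress-induced repressor of cytokine genes, was at 9.14, 9.92, 9.52 and 10.17 in the MACA lungs and 7.79, 7.44 and 7.67 in the BSA lungs (log2 fold 2.05 ± 0.32 (SE), adjusted p = 0.00148). Junb, an AP-1 subunit, was at 10.31, 10.59, 10.85 and 11.30 in the MACA lungs and 8.86, 9.06 and 9.16 in the BSA lungs (log2 fold 1.74 ± 0.26 (SE), adjusted p = 0.00134). Ier2 rose by 1.28 ± 0.21, adjusted p = 0.00206, and Egr1, a zinc-finger factor, by 1.39 ± 0.31, adjusted p = 0.0151. Of 15 genes that restrain or relay STAT signals, 6 rose: Cish, induced by STAT5 (log2 fold 1.31 ± 0.17 (SE), adjusted p = 0.000314), Pim1, a kinase (log2 fold 1.48 ± 0.24 (SE), adjusted p = 0.00218), Socs1, at least 1.79-fold higher (group means 6.67 and 5.47, adjusted p = 0.0125), and Socs3 (log2 fold 1.10 ± 0.26 (SE), adjusted p = 0.021) had the largest changes. Stat3 itself did not pass on its brightest probe set (log2 fold 0.20, 95% interval -0.18 to 0.58) and rose on another (log2 fold 0.34, adjusted p = 0.0203 over all probe sets). Rgs16, a brake on G protein signalling from chemokine receptors, was at least 3.74-fold higher (group means 7.73 and 4.54, adjusted p = 0.00017).

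MAP kinase feedback was divided. Of 14 measured genes 3 rose, Spry4 and Dusp16 among them, and 1, Spry2, fell. Both Sprouty proteins restrain receptor tyrosine kinase signalling, and they moved in opposite directions: Spry4 was at 6.41, 7.22, 6.50 and 6.95 in the MACA lungs and 5.97, 5.67 and 5.76 in the BSA lungs (log2 fold 0.97 ± 0.19 (SE), adjusted p = 0.00628), and Spry2 at 8.75, 8.81, 8.50 and 8.80 in the MACA lungs and 9.77, 9.38 and 9.37 in the BSA lungs (log2 fold -0.80 ± 0.16 (SE), adjusted p = 0.00837). Dusp16, a phosphatase of JNK, changed little but evenly (log2 fold 0.41 ± 0.08 (SE), adjusted p = 0.00714). Dusp1, the best known MAP kinase phosphatase, was high in both groups and did not pass (log2 fold -0.18, 95% interval -0.52 to 0.16). In these feedback groups calls ended for Socs1 (0.0761 without BSA replicate 2), Socs3 (0.0537 to 0.0882 without MACA replicates 2 or 4 or BSA replicates 1 or 2), Egr1 (0.0525 to 0.0808 without MACA replicate 4 or BSA replicate 2) and Spry2 (0.0569 without BSA replicate 1). Counts of risen members moved by over 1.5 times in NF-kB subunits and feedback genes (14 in the full data, 9 without BSA replicate 2), SOCS, Cish and Pim feedback genes (6 in the full data, 2 without BSA replicate 2), and immediate early factors (14 in the full data, 7 without BSA replicate 2, 8 without MACA replicate 4 and 9 without MACA replicate 2). Within the high set 11 of the 16 named feedback genes that changed also passed, and all 16 kept their sign.

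Interferon-stimulated genes formed the longest list of risen members: 19 of 29 rose, none fell by limma, and the median log2 fold was 0.88. They covered both classes, the guanylate-binding and immunity-related GTPases that interferon gamma induces and the 2′-5′ oligoadenylate synthetases of the antiviral state. Gbp6 was at 7.93, 8.56, 8.37 and 8.47 in the MACA lungs and 6.70, 6.97 and 6.31 in the BSA lungs (log2 fold 1.67 ± 0.20 (SE), adjusted p = 0.000123). Ifi47, an immunity-related GTPase, was at 10.38, 11.27, 10.73 and 11.10 in the MACA lungs and 9.28, 9.20 and 9.48 in the BSA lungs (log2 fold 1.55 ± 0.18 (SE), adjusted p = 0.000136). Gbp3 was at 9.71, 10.17, 9.70 and 10.10 in the MACA lungs and 8.54, 8.58 and 8.22 in the BSA lungs (log2 fold 1.47 ± 0.17 (SE), adjusted p = 9.7e-05). All 3 were clear of overlap. Oas3 was at the floor of 4.00 in every BSA and HBSS lung and at least 1.07-fold higher (group means 5.93 and 4.00, adjusted p = 0.00351). Slfn4, a Schlafen gene of myeloid cells, only just passed (log2 fold 2.81 ± 0.81 (SE), adjusted p = 0.0499), and Ifit3, a classical antiviral gene, did not (log2 fold 0.44, 95% interval 0.11 to 0.77). In the vehicle lungs the summed intensity of the list was 17200 to 19300, slightly above the 16200 to 17900 of the albumin lungs, against 24600 to 33900 after MACA.

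Of 11 genes for immunoproteasome and class I peptide loading, 4 rose, among them Tap2, a chain of the peptide transporter (log2 fold 0.89 ± 0.19 (SE), adjusted p = 0.0125), and H2-K1, a class I heavy chain (log2 fold 0.43 ± 0.09 (SE), adjusted p = 0.0118). The summed intensity of the 11 was 29500 to 31200 after MACA, 25500 to 26300 after BSA and 28700 to 29800 after vehicle. The MACA and vehicle sums thus overlapped, and the BSA sums lay below both. H2-D1, another class I chain, on its brightest probe set was at 12.51, 12.52, 12.75 and 12.83 after MACA and 12.45, 12.42 and 12.50 after BSA and did not pass. Of the 8 further probe sets of H2-D1, 2 passed in the same direction (log2 fold 0.68, adjusted p = 0.0196, and 0.23, adjusted p = 0.0339, over all probe sets), so no contrast with H2-K1 is drawn. None of 8 class II genes passed by limma, and 1 had an unadjusted p under 0.05. Cd74, the invariant chain, had a log2 fold of 0.19, 95% interval 0.05 to 0.33. Of 24 type 2 and alternative activation genes 14 were under the noise level throughout, among them Il4, Il5 and Il13, and only Il4ra, the receptor chain shared by interleukin-4 and interleukin-13, rose (1 of 24, 4.17%, log2 fold 0.53 ± 0.14 (SE), adjusted p = 0.039).

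Receptors that sense microbes rose in 9 of 23 cases (median log2 fold 0.88). Tlr2, which binds lipoproteins and fungal wall components, was at 9.74, 10.56, 10.54 and 10.36 in the MACA lungs and 8.87, 8.00 and 8.86 in the BSA lungs (log2 fold 1.72 ± 0.29 (SE), adjusted p = 0.00243). Clec4e (Mincle), a lectin for fungal glycolipids, was at 8.78, 9.85, 9.04 and 9.07 in the MACA lungs and 6.83, 5.50 and 7.16 in the BSA lungs, lowest in BSA replicate 2 (log2 fold 2.69 ± 0.58 (SE), adjusted p = 0.013). Trem1, an amplifier on neutrophils and monocytes, was at least 1.33-fold higher (group means 6.24 and 4.12, adjusted p = 0.00348). Cd14, the co-receptor for lipopolysaccharide, was at 12.17, 12.69, 12.59 and 12.61 after MACA and 11.15, 11.02 and 11.27 after BSA, without overlap, yet did not pass (log2 fold 1.37, 95% interval 0.37 to 2.37). Fitted to the 7 arrays alone it passed (adjusted p = 0.0265). Its HBSS lungs spread from 9.15 to 11.27. The adjusted p rose above the threshold for Tap2 (0.0879 without BSA replicate 2), H2-K1 (0.0739 without BSA replicate 2), Il4ra (0.0658 to 0.177 without MACA replicates 1, 2 or 4 or BSA replicates 1 or 2), Clec4e (0.0926 without BSA replicate 2) and Slfn4 (0.0663 to 0.174 without any MACA array or any BSA array). Counts that moved by over 1.5 times were immunoproteasome and MHC class I loading (4 in the full data, 1 without BSA replicate 2 and 2 without MACA replicates 2, 3 or 4 or BSA replicates 1 or 3), pattern recognition receptors (9 in the full data, 4 without BSA replicate 2), and type 2 and alternative activation genes (1 in the full data, 0 without MACA replicates 1, 2 or 4 or BSA replicates 1 or 2). The 11 named genes of these lists that rose kept their sign within the high set, and 4 passed.

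Acute phase and antimicrobial genes rose in 6 of 23 cases. The serum amyloid A proteins, secreted by epithelium and macrophages in inflamed lung, led them. Saa3 was at 11.21, 11.79, 11.50 and 11.81 in the MACA lungs and 8.14, 8.05 and 8.27 in the BSA lungs (log2 fold 3.42 ± 0.81 (SE), adjusted p = 0.0228). Saa1 was at 8.19, 8.92, 7.75 and 8.45 in the MACA lungs and 6.12, 5.14 and 5.28 in the BSA lungs (log2 fold 2.81 ± 0.49 (SE), adjusted p = 0.00342). The MACA and BSA lungs were separated by more than 1 log2 unit in both. Steap4, a metalloreductase induced by cytokines, rose by 1.78 ± 0.35, adjusted p = 0.00714, and Ptx3, a soluble pattern receptor for fungi, was at least 2.85-fold higher (group means 7.34 and 5.47, adjusted p = 0.00337). Acod1, which makes itaconate in activated macrophages, was absent above noise after albumin and at least 6.12-fold higher (group means 8.44 and 4.14, adjusted p = 0.0038), with MACA levels of 7.96, 9.51, 7.47 and 8.83. Sod2, the mitochondrial superoxide dismutase induced by NF-kB, rose by 0.79 ± 0.15, adjusted p = 0.00453. Slc26a4 (pendrin), an anion exchanger of airway epithelium, was at 10.69, 11.31, 10.58 and 11.08 in the MACA lungs and 7.29, 6.13 and 7.94 in the BSA lungs (log2 fold 3.80 ± 0.73 (SE), adjusted p = 0.00667). In the vehicle lungs it was at 9.39, 8.70 and 7.31, so that MACA lay above vehicle too.

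On the vessel wall, 7 of 18 selectins and adhesion molecules rose (median log2 fold 0.32). Sele and Selp, the endothelial selectins on which leukocytes roll, led. Sele was under the noise level in all BSA lungs and at least 4.12-fold higher (group means 7.87 and 5.07, adjusted p = 0.000239). Selp was at 8.56, 9.82, 8.52 and 9.82 in the MACA lungs and 6.75, 6.68 and 6.81 in the BSA lungs, with replicates 2 and 4 above replicates 1 and 3 and all above BSA (log2 fold 2.43 ± 0.35 (SE), adjusted p = 0.000845). Selplg, their leukocyte ligand, rose by 1.04 ± 0.21, adjusted p = 0.0102. None of 20 endothelial identity markers passed by limma, and 3 had an unadjusted p under 0.05. Among matrix proteases Adamts4, an aggrecanase, rose by 2.56 ± 0.45, adjusted p = 0.00351 and Mmp9, a gelatinase of neutrophils, by 1.47 ± 0.19, adjusted p = 0.000357. With Mmp8 they were the 3 of 17 that rose, and the abundant inhibitor Timp2 did not pass (log2 fold 0.01, 95% interval -0.11 to 0.13). Coagulation gave 3 of 18, including factor X, F10 (log2 fold 1.65 ± 0.34 (SE), adjusted p = 0.0112), and thrombospondin 1, Thbs1 (log2 fold 1.08 ± 0.23 (SE), adjusted p = 0.0118). Prostaglandin enzymes and receptors gave 3 of 17, with Ptgs2 (cyclooxygenase-2) at 9.01, 9.08, 8.98 and 9.70 in the MACA lungs and 8.23, 8.42 and 8.07 in the BSA lungs (log2 fold 0.95 ± 0.24 (SE), adjusted p = 0.0291). Calls ended for Saa3 (0.061 to 0.0918 without MACA replicate 4 or BSA replicates 1 or 2), Slc26a4 (0.0526 without BSA replicate 2), Selplg (0.0761 without BSA replicate 2), F10 (0.0738 without BSA replicate 2) and Ptgs2 (0.0719 to 0.0924 without MACA replicate 4 or any BSA array). Counts of risen members that moved by over 1.5 times were selectins and leukocyte adhesion molecules (7 in the full data, 3 without BSA replicate 2 and 4 without MACA replicate 2 or BSA replicate 1), coagulation and fibrinolysis genes (3 in the full data, 1 without BSA replicate 2), and prostaglandin and leukotriene enzymes (3 in the full data, 0 without BSA replicate 1 and 1 without MACA replicate 4 or BSA replicate 2). All 15 named genes from Saa3 to Ptgs2 kept their sign within the high set, and 5 passed.

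Neutrophil markers and some dendritic cell markers rose with these genes. In bulk tissue more cells of a type and more RNA per cell cannot be told apart. Of 15 neutrophil markers 8 rose, with a median log2 fold of 1.19. Their summed normalised intensity was 9940, 14800, 9450 and 11000 in the MACA lungs against 3080, 2230 and 5270 in the BSA lungs and 5090, 3670 and 1720 in the vehicle lungs. The MACA sums did not overlap the others, while BSA and vehicle sums did overlap each other. S100a8 and S100a9, the calprotectin subunits that fill neutrophil cytosol, were at 11.53, 11.99, 11.52 and 11.66 in the MACA lungs and 9.26, 8.73 and 10.65 in the BSA lungs and at 11.77, 12.50, 11.70 and 11.93 in the MACA lungs and 9.26, 8.50 and 10.66 in the BSA lungs. Both rose (log2 fold 2.13 ± 0.51 (SE), adjusted p = 0.0228, and log2 fold 2.5 ± 0.59 (SE), adjusted p = 0.0226), and BSA replicate 3 stood well above the other two BSA lungs in both. Csf3r, the receptor for G-CSF, rose by 2.08 ± 0.42, adjusted p = 0.00936 and Mmp8, the neutrophil collagenase, by 1.85 ± 0.41, adjusted p = 0.0164. The precursor genes Mpo, Elane and Camp were under the noise level on all 7 arrays. The part of these cells in the rise of Il1b, Cxcl2, Trem1 and other genes that neutrophils also express was not tested.

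Of 16 dendritic cell markers 6 rose: the maturation genes Cd83, Ccl22, Relb and Cd40, and Irf4 and Irf8. The other 10 did not pass. Ccl22, Relb and Cd40 were also counted above among CC chemokines, NF-kB genes and TNF receptors, so the lists are not independent. Cd83 had the smallest adjusted p of all genes and was at 10.44, 11.02, 10.93 and 11.28 in the MACA lungs and 8.02, 7.74 and 8.21 in the BSA lungs (log2 fold 2.93 ± 0.22 (SE), adjusted p = 4.51e-06). Cd40, the receptor through which T cells license dendritic cells, rose by 1.05 ± 0.19, adjusted p = 0.00392. Macrophage markers differed in 2 of 18, Marco and Itgam (11.1%, against 5.95% of all genes). Marco, a scavenger receptor, was at least 1.01-fold higher (group means 5.84 and 4.26, adjusted p = 0.0468), and Itgam (CD11b), shared with neutrophils, was at least 1.5-fold higher (group means 6.41 and 5.57, adjusted p = 0.0248). A single marker rose each for T and NK cells (Gzma, granzyme A, 1.12 ± 0.29, adjusted p = 0.0342), B cells (Fcer2a, the low-affinity IgE receptor, 1.39 ± 0.30, adjusted p = 0.0141), and eosinophils, basophils and mast cells (Hdc, histidine decarboxylase, 0.68 ± 0.14, adjusted p = 0.012). These are 5.88%, 8.33% and 6.67% of the measured markers, near the 5.95% of all genes. Of 17 T and NK cell markers 10 had an unadjusted p under 0.05 by limma, against 21.9% of all genes, and the median log2 fold was 0.64. Their summed intensity was 2150 to 3130 after MACA, 1220 to 2120 after BSA and 1520 to 2290 after vehicle. The MACA and vehicle sums thus overlapped. Eosinophil genes Epx, Prg2 and Ccr3 were under the noise level in both groups. Of 21 fibroblast and smooth muscle markers 2 changed (9.52%), 1 of which rose, Mfap4, a microfibril protein (0.80 ± 0.21, adjusted p = 0.0373).

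No member passed by limma among 15 alveolar epithelial, 16 airway epithelial, 20 endothelial, 9 erythroid and platelet, 21 muscle, fat and cartilage and 10 thymus and lymph node markers, where 4, 0, 3, 0, 0 and 0 had an unadjusted p under 0.05. Marker calls depended on single arrays: the adjusted p passed 0.05 for S100a8 (0.0528 to 0.142 without MACA replicates 2 or 4 or BSA replicates 1 or 2), S100a9 (0.0532 to 0.14 without MACA replicates 2 or 4 or BSA replicates 1 or 2), Csf3r (0.0718 without BSA replicate 2), Mmp8 (0.0704 to 0.0986 without BSA replicates 1 or 2), Fcer2a (0.0988 without BSA replicate 2), Hdc (0.0622 without BSA replicate 2), Gzma (0.0607 to 0.19 without MACA replicates 2, 3 or 4 or BSA replicates 2 or 3), Mfap4 (0.0762 to 0.131 without MACA replicates 2, 3 or 4 or BSA replicates 2 or 3), Marco (0.0706 to 0.164 without MACA replicates 1, 2 or 3 or any BSA array) and Itgam (0.0512 to 0.103 without MACA replicates 2 or 4 or BSA replicates 1 or 2). The counts moved by over 1.5 times in neutrophil markers (8 in the full data, 1 without BSA replicate 2, 3 without BSA replicate 1, 4 without MACA replicate 2 and 5 without MACA replicate 4) and in macrophage and monocyte markers (2 in the full data, 0 without MACA replicate 2 or BSA replicates 1 or 2 and 1 without MACA replicates 1, 3 or 4 or BSA replicate 3). Within the high set all 12 named markers kept their sign, and 1, Cd83, passed.

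**Figure D3:**
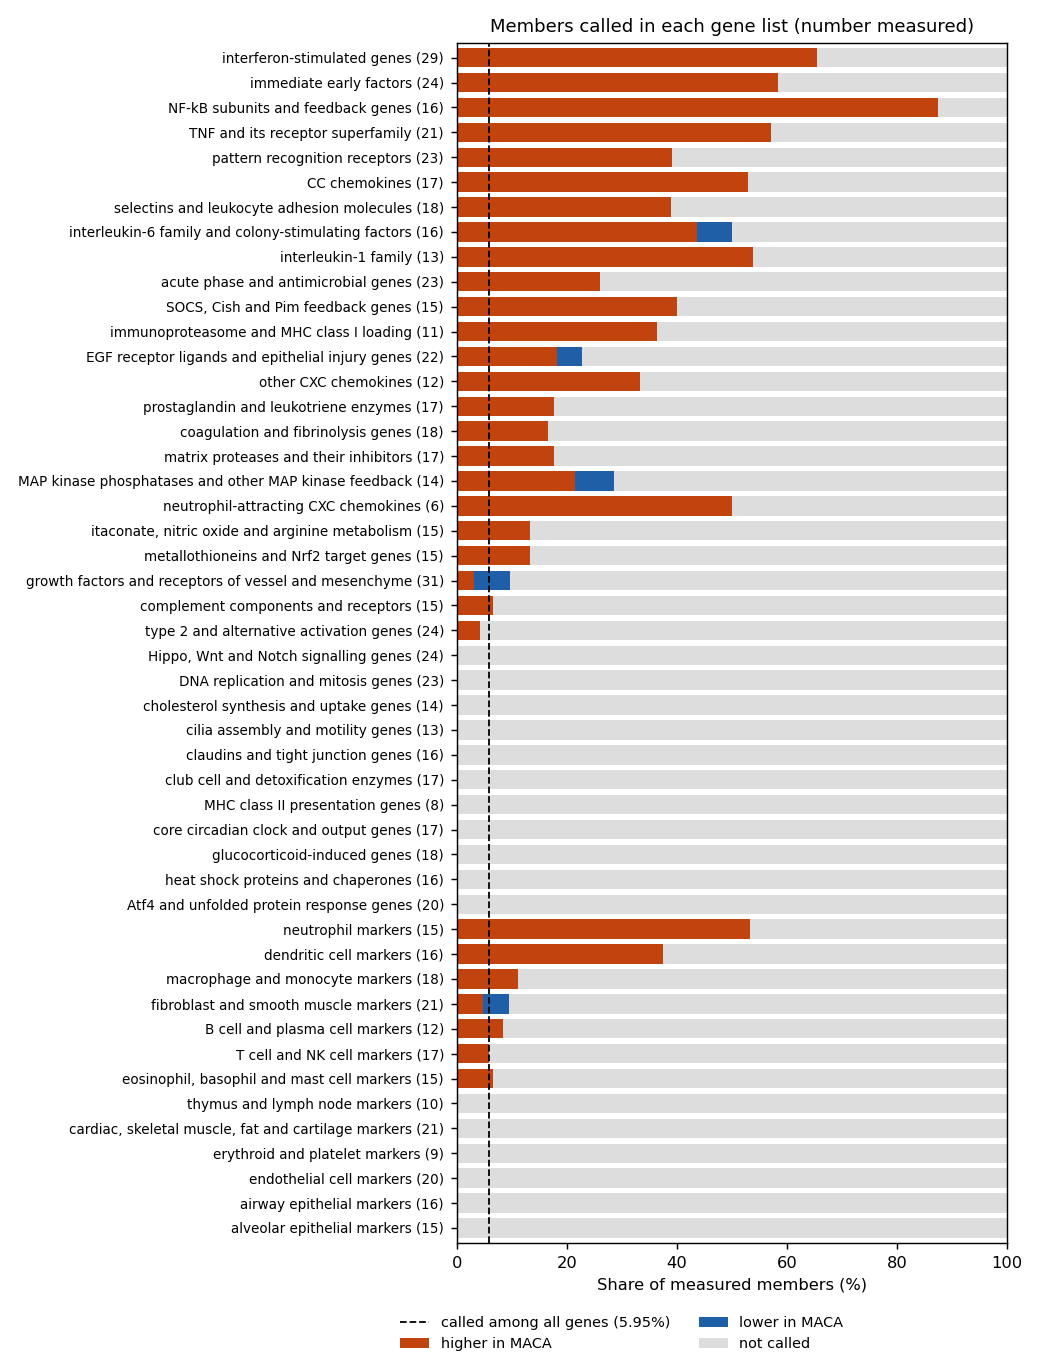
Share of the measured members of 48 gene lists (35 pathways above, 13 sets of cell markers below) that were higher (red), lower (blue) or not called (grey) in MACA against BSA at 3 h, with the number measured in brackets. The dashed line marks the 5.95% called among all genes, and NF-kB genes reach 87.5% while 17 lists have no call.

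Some epithelial and stress genes were high after both agents. BSA differed from HBSS at 3 h in 22 of 12393 genes (0.178%), 20 higher (0.161%) and 2 lower (0.0161%, Havcr1 and Cer1, both under the noise level in every MACA and BSA lung). For 20 of the 22 the comparison of MACA with BSA did not pass. The 22 became 7 without HBSS replicate 1, 8 without BSA replicate 2 and 9 without BSA replicate 3 or HBSS replicate 2. Fosl1 (Fra-1), an AP-1 subunit of injured epithelium, was at 7.63, 7.54, 7.63 and 7.99 in the MACA lungs and 7.57, 8.11 and 7.93 in the BSA lungs, and at 4.22, 4.00 and 4.00 in the vehicle lungs. The 2 treated groups overlapped each other and lay clear of vehicle (BSA minus HBSS 3.80 ± 0.66, adjusted p = 0.0209, MACA minus BSA -0.17, 95% interval -1.49 to 1.14). The vehicle lungs were under the noise level for Fosl1, so the size of the 3.80 is uncertain. Artn, a neurotrophic ligand, was at 6.82, 6.81, 7.11 and 7.63 in the MACA lungs and 6.95, 6.97 and 7.07 in the BSA lungs, and at 4.72, 4.43 and 4.75 after vehicle (MACA minus BSA 0.09, 95% interval -0.64 to 0.83). Gjb2, a connexin of gap junctions, was at 7.86, 7.75, 8.20 and 8.42 in the MACA lungs and 8.21, 8.28 and 8.34 in the BSA lungs, and at 6.15, 6.75 and 6.66 after vehicle (BSA minus HBSS 1.76 ± 0.20, adjusted p = 0.000727, MACA minus BSA -0.22, 95% interval -0.61 to 0.17). The interval for Fosl1 is wide enough to hold a 2-fold difference in either direction, and those of Artn and Gjb2 are not.

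Chac1, a glutathione-degrading enzyme and target of Atf4, differed by -0.39, 95% interval -0.99 to 0.21 between MACA and BSA, after a rise of 1.84 ± 0.30 with albumin over vehicle (adjusted p = 0.0144). Chac1 was lower after MACA and passed within the high set (log2 fold -0.77, adjusted p = 0.0221). The keratins Krt8 and Krt15 differed by 0.14, 95% interval -0.07 to 0.35, and by 0.12, 95% interval -0.51 to 0.76. Hspb1 (Hsp27), a small chaperone of stressed epithelium, was at 13.06, 12.94, 12.94 and 13.08 in the MACA lungs and 12.92, 13.08 and 13.08 in the BSA lungs and at 12.00, 12.08 and 12.47 after vehicle (MACA minus BSA -0.02, 95% interval -0.29 to 0.25). Clu (clusterin), an extracellular chaperone chosen after its values were seen, differed by -0.12, 95% interval -0.51 to 0.28. Chemokines were split by this measure. Cxcl17, a mucosal chemokine, was at 10.42, 10.71, 10.54 and 10.86 in the MACA lungs and 10.83, 10.79 and 10.84 in the BSA lungs and at 9.73, 9.97 and 9.62 after vehicle (MACA minus BSA -0.19, 95% interval -0.53 to 0.16). Ccl20, which calls dendritic cells and Th17 cells through Ccr6, was at 9.16, 9.03, 8.61 and 9.69 in the MACA lungs and 8.53, 8.63 and 9.42 in the BSA lungs, against 4.72, 4.98 and 4.00 after vehicle. Its treated groups overlapped (MACA minus BSA 0.26, 95% interval -1.61 to 2.13), while BSA minus HBSS was 4.29 ± 0.94 and did not pass (adjusted p = 0.08). The vehicle lungs were under the noise level for Ccl20, so the size of the 4.29 is uncertain.

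**Figure D4:**
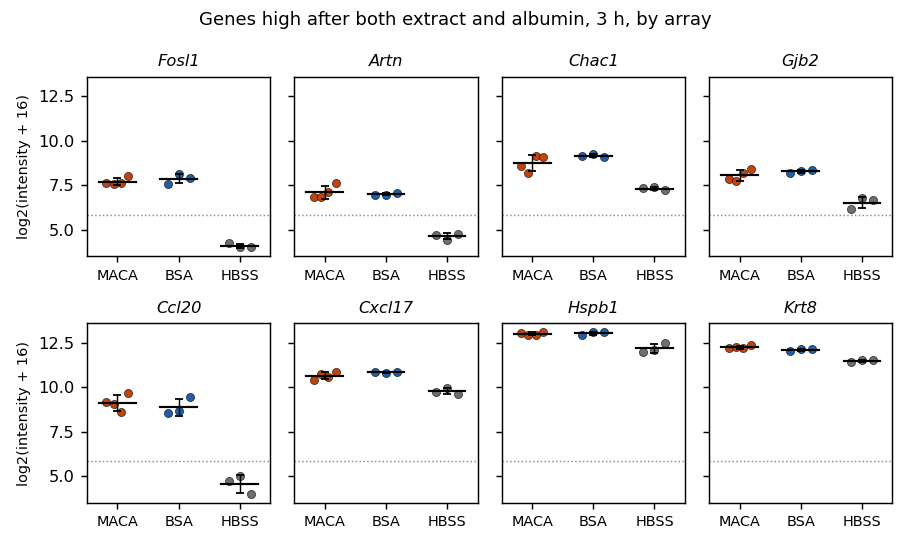
Levels at 3 h of 8 genes, as log2(intensity + 16), by array in MACA (n = 4), BSA (n = 3) and HBSS (n = 3) lungs, with bars for mean and SD and a dotted line at the noise level of 5.83. MACA and BSA points lie near each other and above the HBSS points, as for Fosl1 with means of 7.70, 7.87 and 4.07.

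Of the 22 genes 2 did differ between extract and albumin, and both were singled out after their values were seen. Rcan1, a calcineurin inhibitor, stepped up with each agent, from 9.23, 9.15 and 9.19 with vehicle to 10.09, 10.09 and 10.06 with albumin and 10.54, 10.69, 10.59 and 10.77 with MACA (log2 fold 0.57 ± 0.14 (SE), adjusted p = 0.0262). Abcc1, a pump for glutathione conjugates, was at 8.49, 8.25 and 8.29 with vehicle, highest with albumin at 9.46, 9.52 and 9.32, and at 9.14, 9.03, 9.05 and 9.20 with MACA (log2 fold -0.33 ± 0.09 (SE), adjusted p = 0.0386). Among lists, none of 20 Atf4 and unfolded protein response genes passed between MACA and BSA by limma (3 at an unadjusted p under 0.05). Of the 20, 2 were lower after MACA within the high set, and without MACA replicate 1 there was 1 lower and 1 higher. Their summed intensity was 29300 to 34100 after MACA, 32300 to 34800 after BSA and 24200 to 25600 after vehicle. Hspa5 (BiP), the main chaperone of that response, had a log2 fold of -0.04, 95% interval -0.45 to 0.36. For 22 EGF receptor ligands and epithelial injury genes the sums were 19900 to 23500, 18900 to 19100 and 11800 to 12800, and 4 members rose, Ptgs2 among them, and 1 fell, Erbb3, a neuregulin receptor chosen after its value was seen (log2 fold -0.42 ± 0.10 (SE), adjusted p = 0.0195). For 15 metallothioneins and Nrf2 targets the sums were 32700 to 38600, 26000 to 28100 and 17200 to 19900. Only Mt1, a zinc-binding metallothionein, and Sod2 rose there (Mt1 log2 fold 0.90 ± 0.24 (SE), adjusted p = 0.0387). Calls ended for Rcan1 (0.0549 to 0.0927 without MACA replicates 2 or 4 or any BSA array), Abcc1 (0.0553 to 0.18 without MACA replicates 2, 3 or 4 or BSA replicates 1 or 2), Mt1 (0.053 to 0.143 without MACA replicates 1, 2 or 4 or any BSA array) and Erbb3 (0.052 to 0.0857 without MACA replicate 2 or BSA replicates 1 or 2). Of the calls of BSA against HBSS named above, those of Gjb2 and Abcc1 held without any 1 array. The other 9 (Fosl1, Artn, Krt15, Chac1, Cxcl17, Krt8, Hspb1, Clu and Rcan1) each ended without BSA replicate 2, BSA replicate 3 or HBSS replicate 1, with adjusted p up to 0.149. Counts that moved by over 1.5 times were EGF receptor ligands and epithelial injury genes (4 in the full data, 0 without MACA replicate 4 and 1 without BSA replicates 1 or 2), and metallothioneins and Nrf2 target genes (2 in the full data, 1 without MACA replicates 1, 2 or 4 or any BSA array). Rcan1, Abcc1, Mt1 and Erbb3 kept their sign within the high set, and 1 of the 4 passed.

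Nothing passed by limma in 10 further lists: heat shock proteins (16 measured, 4 with an unadjusted p under 0.05), glucocorticoid-induced genes (18 and 7), clock genes (17 and 5), club cell enzymes (17 and 0), claudins and tight junction genes (16 and 4), cilia genes (13 and 2), cholesterol synthesis (14 and 4), DNA replication and mitosis (23 and 3), and Hippo, Wnt and Notch genes (24 and 4), besides class II presentation. Their median log2 folds lay between -0.22 (clock genes) and 0.20 (class II). Leaving out 1 array gave 1 risen member among clock genes (MACA replicate 3), cholesterol genes (BSA replicate 3), replication genes (MACA replicate 1) and endothelial markers (BSA replicate 3). It gave fallen members among claudins and tight junction genes (2 without MACA replicate 1 and 1 without MACA replicate 2), Hippo, Wnt and Notch genes (1 without MACA replicates 1, 2 or 3), heat shock proteins (1 without MACA replicate 1) and glucocorticoid-induced genes (1 without MACA replicate 1). A Hippo, Wnt and Notch gene also fell within the high set. Of 15 complement genes 1 rose (6.67%), with 0 without BSA replicate 2 and 3 without MACA replicate 1, and of 15 genes of itaconate, nitric oxide and arginine metabolism 2 rose, Acod1 among them, with 1 without MACA replicates 2 or 4 or BSA replicates 1 or 2.

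The genes that fell were many, their changes were mostly small, and few were members of the pathway lists. No other grouping of them by function was tested. Of the 304, 9 fell at least 2-fold by fitted folds. Among those 9 were Krtap5-1, Crocc and Fgf3, which were under the noise level on every MACA array. The pathway lists held 5 of the 304: Lifr, Spry2, Erbb3, Ccn2 and Pdgfra. Exosc8, a subunit of the RNA exosome, was at 6.02, 5.62, 6.26 and 5.78 in the MACA lungs and 7.24, 7.99 and 7.33 in the BSA lungs (log2 fold -1.60 ± 0.24 (SE), adjusted p = 0.00109). Vehicle lungs lay between, at 6.71, 6.74 and 6.36. Rpl27a, a large-subunit ribosomal protein, was at 7.11, 7.86, 7.05 and 6.79 in the MACA lungs and 8.74, 8.55 and 8.82 in the BSA lungs (log2 fold -1.50 ± 0.22 (SE), adjusted p = 0.000993) on its brighter probe set, and a second probe set lay near the floor in both groups. Map3k12, a kinase upstream of JNK, was at 7.39, 7.31, 7.46 and 7.09 in the MACA lungs and 8.83, 8.54 and 8.85 in the BSA lungs (log2 fold -1.42 ± 0.28 (SE), adjusted p = 0.00715). In these 3 genes the groups did not overlap, and the call held without any 1 array.

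Other falls rested on fewer arrays. Cep68, a centrosomal protein, fell (log2 fold -1.11 ± 0.24 (SE), adjusted p = 0.0144) on 1 of its 4 probe sets. The others did not pass and differed in direction, with log2 folds of 0.18, 0.14 and -0.24. Myo5c, an unconventional myosin of secretory epithelium, fell (log2 fold -1.03), as did Sp4, a zinc-finger factor, Eml5 (-0.98) and Caap1 (-0.97). Krtap5-1, Crocc and Fgf3 were under the noise level on every MACA lung and near it in BSA lungs, so no fold is given, and Rai2 was at least 1.34-fold lower (adjusted p = 0.0326). Of 31 growth factors and receptors of vessel and mesenchyme 3 changed (9.68%, against 5.95% of all genes): 1 rose, Tgfb1, transforming growth factor beta 1 (log2 fold 1.02 ± 0.21 (SE), adjusted p = 0.00997), and 2 fell. These were Pdgfra, the platelet-derived growth factor receptor of fibroblasts (log2 fold -0.34 ± 0.09 (SE), adjusted p = 0.0373), and Ccn2, connective tissue growth factor (log2 fold -0.55 ± 0.16 (SE), adjusted p = 0.0485). Pdgfra was also the 1 of 21 fibroblast markers that fell, and its other probe set lay higher after MACA without passing (log2 fold 0.64, adjusted p = 0.0872 over all probe sets). Calls ended for Cep68 (0.0507 to 0.0667 without MACA replicate 4 or BSA replicates 1 or 2), Myo5c (0.0501 to 0.154 without MACA replicates 2, 3 or 4 or any BSA array), Sp4 (0.0965 to 0.153 without MACA replicates 3 or 4 or BSA replicates 1 or 2), Eml5 (0.0532 to 0.107 without MACA replicates 3 or 4 or BSA replicate 1), Caap1 (0.0593 to 0.17 without MACA replicates 2, 3 or 4 or BSA replicates 1 or 2), Krtap5-1 (0.0529 to 0.146 without MACA replicates 2, 3 or 4 or BSA replicates 1 or 2), Crocc (0.0649 to 0.148 without MACA replicates 3 or 4 or BSA replicates 1 or 2), Fgf3 (0.0734 to 0.171 without MACA replicates 2, 3 or 4 or any BSA array), Rai2 (0.0741 to 0.0948 without MACA replicates 3 or 4 or any BSA array), Tgfb1 (0.0622 to 0.0738 without BSA replicates 1 or 2), Pdgfra (0.0673 to 0.143 without MACA replicates 2 or 3 or any BSA array) and Ccn2 (0.0702 to 0.233 without MACA replicates 2, 3 or 4 or BSA replicates 1 or 2). The count of risen members moved in growth factors and receptors of vessel and mesenchyme (1 in the full data, 0 without BSA replicates 1 or 2 and 3 without BSA replicate 3). Within the high set 2 of the 14 named genes that fell passed, and all 14 kept their sign.

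The same contrast at 12 h used other mice, so the times share no array. At 12 h BSA replicates 3 and 4 lay in the low set, at 0.939 and 1.06, and every MACA array lay in the high set. At 3 h it was MACA replicates 3 and 4 that lay in the low set. The 12 h contrast and the difference between the times are thus in part confounded with the technical set. At 12 h 1196 genes differed (9.65%), 504 higher (4.07%) and 692 lower (5.58%). That count was 398 without MACA 12 h replicate 2, 698 without BSA 12 h replicate 4 and 797 without BSA 12 h replicate 3, and with no scaling 30 of 96 were higher (31.2% against 42.1%). Of the genes higher at 3 h, 170 were also higher at 12 h, which is 39.2% of the 3 h list and 33.7% of the 12 h list. Of those lower at 3 h, 38 were also lower at 12 h (12.5% and 5.49%). Direction was kept more widely than the call: 87.6% of the 434 had a log2 fold above 0 at 12 h, against 45.6% of all genes, and 68.8% of the 304 one below 0, against 54.4%. Cxcl10 had a log2 fold of 3.35 ± 0.42 at 12 h (adjusted p = 0.000429) and Saa1 one of 4.24 ± 0.49 (adjusted p = 0.000182). Both calls held without any 1 array.

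The difference between the times was itself tested, as MACA minus BSA at 3 h less MACA minus BSA at 12 h, and 89 genes passed (0.718%), 62 of them more positive at 3 h. With median scaling 34 of 58 were more positive at 3 h (58.6% against 69.7%). Cd83 fell back from 2.93 at 3 h to 0.84 at 12 h (difference 2.08 ± 0.31, adjusted p = 0.0124). Tnfaip3 went from 2.57 to 0.89 (difference 1.69 ± 0.34, adjusted p = 0.0368). Csf3 went from a fitted 2.43 to -0.02 (adjusted p of the difference = 0.0445). Every BSA lung at 3 h was under the noise level for Csf3, so the size of its difference is uncertain. These are early genes of activation, feedback and granulocyte growth. Ifi47 went from 1.55 to 0.23, and Cd40, Hdc and Rpl27a also differed between the times. In all, 6 genes passed at both times with opposite signs, all singled out after their values were seen: Man2b1, Akap12, Slc7a10 and Tbc1d22a were higher at 3 h and lower at 12 h, and Mrps36 and Hyou1 the reverse. Slc7a10, an amino acid transporter, went from 0.72 to -0.95 and Hyou1, a chaperone of the endoplasmic reticulum, from -0.67 to 0.57. The 3 h calls ended for Man2b1 (0.0552 to 0.181 without MACA replicates 2, 3 or 4 or BSA replicates 1 or 2), Akap12 (0.0581 to 0.22 without MACA replicates 1, 2 or 4 or BSA replicates 1 or 2), Slc7a10 (0.05 to 0.0855 without MACA replicates 2 or 4 or any BSA array), Tbc1d22a (0.0702 to 0.181 without MACA replicates 3 or 4 or any BSA array), Mrps36 (0.0501 to 0.176 without MACA replicates 2, 3 or 4 or BSA replicates 1 or 2) and Hyou1 (0.0505 to 0.0852 without MACA replicates 1, 2 or 3 or any BSA array). None of these 6 passed within the high set (0 of 6), and all 6 kept their sign. Of the differences named here, that of Slc7a10 was kept whichever array was left out, and that of Cd83 was lost without BSA 3 h replicate 2 (adjusted p = 0.0501). Those of the other 11 (Tnfaip3, Csf3, Ifi47, Cd40, Hdc, Rpl27a, Hyou1, Man2b1, Akap12, Mrps36 and Tbc1d22a) each ended without MACA 3 h replicate 3, BSA 3 h replicate 1 or 2, MACA 12 h replicate 2 or BSA 12 h replicate 4, with adjusted p up to 0.119. With the technical set as a term none of the 13 differences passed by limma (adjusted p 0.143 for Slc7a10, 0.161 for Cd83 and up to 0.302 for the others), and all 13 kept their sign. In that fit 2 of the 89 differences passed over all genes, and the count of differences was 6 to 46 without BSA 3 h replicate 1, 2 or 3, MACA 3 h replicate 2, 3 or 4, MACA 12 h replicate 2 or 3 or BSA 12 h replicate 3 or 4, and 157 to 220 without MACA 3 h replicate 1 or BSA 12 h replicate 1 or 2.

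**Figure D5:**
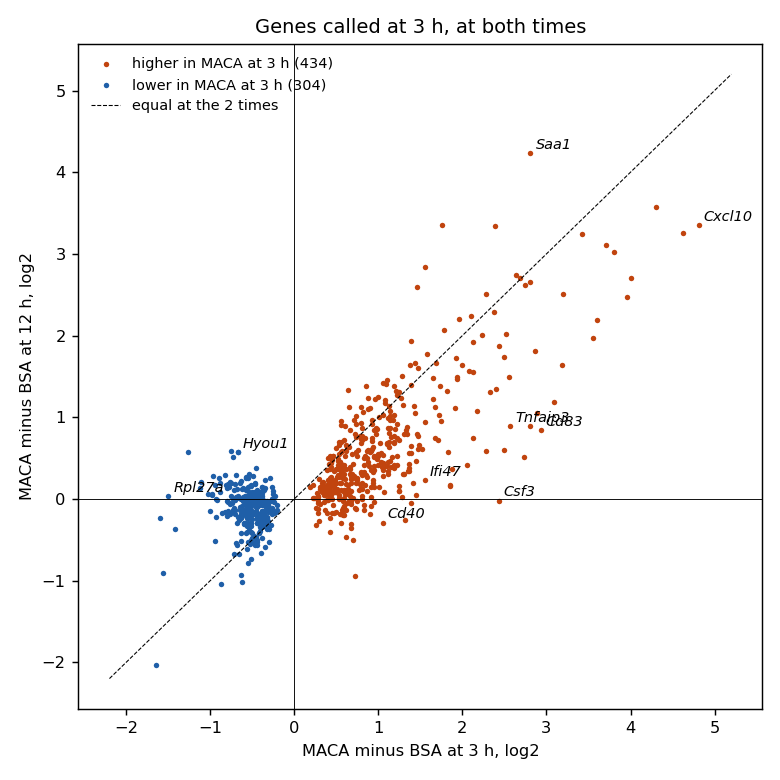
Each point is 1 of the 738 genes called at 3 h, with MACA minus BSA at 3 h on the x axis and at 12 h on the y axis, in log2 units, and a dashed line of equality. Of the 434 genes higher at 3 h (red) 380 lie above 0 at 12 h, and Cd83, Tnfaip3 and Csf3 lie far below the line.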

How the data were processed

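RNA of the whole left lung was labelled and hybridised, 1 array per mouse sample, and groups follow the labels. The authors' deposited table holds intensities for 22690 probe sets, judged to be linear from their range. How the authors summarised or scaled them is not given in the sources used. Their medians differed by up to 3.08 times over the 21 arrays, and 9.9% to 10.3% of values on the 7 arrays were below 0. Here 64 control probe sets were left out and the intensities quantile normalized, floored at 0 and taken as log2(intensity + 16), which understates changes of dim genes. A gene was represented by its brightest probe set. Of 22626 probe sets, 20380 had 1 symbol in the platform annotation, 691 several and 1555 none. Of the probe sets with 1 symbol, 20351 matched RefSeq's GRCm38.p6 table by gene identifier.

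With limma 3.58.1 (R 4.3.3), 1 mean per group was estimated for 6 groups from 21 arrays (15 residual degrees of freedom), for 4 comparisons with Benjamini-Hochberg adjustment. The code was tested on simulated data. The p-values measure the spread among these arrays. Alternatives were other scaling, offsets of 1 and 64, dim genes left out, every probe set, an intensity trend, the technical set as a term or alone, the replicate block, the 7 arrays alone, and each array left out.

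The naming rule took the 20 largest rises and 12 largest falls among called genes with separate groups, up to 4 called and 2 uncalled members of each of 48 lists (857 genes, 760 measured), and 5 each way for BSA against HBSS. The text describes a selection of these, and a gene outside the rule is marked as such. The members, lists and rules were chosen with earlier results of these data known. Figures were drawn with python 3.11.15 and matplotlib 3.10.9.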

Additional observations from a re-analysis of the deposited data

Results flagged for a closer look

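In 9 genes described above or measured with them, 1 of the 4 MACA arrays at 3 h stood far from the other three by Dixon's test. Chance gives this in about 1 in 20 groups. Over as many genes as are named here several such groups are due by chance, so they are listed without a conclusion. MACA replicate 1 was the low array in 4 of them: Ccl17 (9.66, against 9.96 to 10.02), Nfkbia (12.99, against 13.16 to 13.19), H2-K1 (12.43, against 12.58 to 12.61) and Sod2 (11.65, against 12.05 to 12.11). Replicate 2 was high in Crocc (4.47, against the floor of 4.00 in the others), Eml5 (6.37, against 5.61 to 5.68) and Itgam (6.65, against 6.31 to 6.36). Replicate 3 was low in Il4ra (9.66, against 10.15 to 10.22), and replicate 4 was high in Ptgs2 (9.70, against 8.98 to 9.08).

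In 13 genes the effect of the extract over albumin differed between 3 h and 12 h by limma's test of the difference, given here as 3 h minus 12 h on the log2 scale. It was larger at 3 h for Csf3 (2.45, adjusted p = 0.0445), Cd83 (2.08, adjusted p = 0.0124), Tnfaip3 (1.69, adjusted p = 0.0368), Cd40 (1.34, adjusted p = 0.0363), Ifi47 (1.32, adjusted p = 0.0363) and Hdc (0.99, adjusted p = 0.0371). For Csf3 every BSA lung at 3 h was under the noise level, so the size of its difference is uncertain. Effects of opposite sign at the 2 times gave differences of 1.67 in Slc7a10 (adjusted p = 0.0116), 0.83 in Tbc1d22a (adjusted p = 0.0363), 0.58 in Man2b1 (adjusted p = 0.0308), 0.56 in Akap12 (adjusted p = 0.0368), -0.55 in Mrps36 (adjusted p = 0.0363) and -1.24 in Hyou1 (adjusted p = 0.0363). Rpl27a fell at 3 h and was level at 12 h (-1.53, adjusted p = 0.0363). None of these 13 differences passed by limma once a term for the technical set was added (adjusted p 0.143 to 0.302), where 1096 genes had an unadjusted p under 0.05.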

How the results depend on the processing

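Calls of the extract against albumin at 3 h numbered 738 and stayed within 1.5 times under median scaling (814), offsets of 1 (650) and 64 (778), without dim genes (780), over every probe set (1055), with an intensity trend (746) and with the technical set as a term (567). They fell to 44 with no scaling, 132 with the 7 arrays alone and 152 within the high set, and ranged from 218 to 922 with 1 array left out. Fewer arrays were fitted in the last 3 of these, and the cause was not tested for no scaling. For BSA against HBSS the 22 calls became 0 with no scaling by limma (409 at an unadjusted p under 0.05), 34 over every probe set and 54 with the set term, and 7 to 26 with 1 array left out. With no scaling the median log2 fold over all genes in that comparison was 0.12, against -0.01. At 12 h the 1196 calls became 96 with no scaling and 760 with the set term, and 398 to 1670 with 1 array left out. The 89 differences between times became 58 with median scaling, 0 with no scaling by limma (600 at an unadjusted p under 0.05) and 2 with the set term, and 6 to 220 with 1 array left out. The cause was not tested. No called value changed sign. Of 102 named calls, 96 held under median scaling, 34 with no scaling, 83 with the set term, 54 with the 7 arrays alone, 35 within the high set, and 52 to 96 with 1 array left out.

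With the replicate number as a block the counts were 242, 45, 710 and 6 in the same order, and 52 of the 102 named calls held. Same-numbered MACA and BSA arrays at 3 h had deviations that correlated at 0.0316, -0.00429 and 0.138, and replicates 1 and 2 of MACA each correlated better with another number. Such small values from so few arrays cannot settle whether same-numbered samples share more than a number.

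Dim genes limit the folds. A gene under the noise level of 5.83 in one group has only a bound, and 8911 of the 12393 genes remained when dim genes were left out.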
